A study of Mus musculus with 2 samples.

Results

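*Cdkn1a*, the gene of the cyclin-dependent kinase inhibitor p21, was followed together with 7 other genes that the transcription factor p53 is known to switch on: *Mdm2*, *Ccng1*, *Trp53inp1*, *Bax*, *Phlda3*, *Sesn1* and *Gdf15*. These 8 of the 19465 genes measured were chosen by name, with earlier results of these sections known, to see whether *Cdkn1a* moved with the others between the bone, the muscle and the rest of a healing femur and between the Control and the Loaded animal. In the bone spots *Cdkn1a* was lower in the Loaded section, at 1.59 against 2.62 normalized molecules per spot, and so were *Ccng1*, *Trp53inp1*, *Phlda3* and *Sesn1*. The differences of *Ccng1* and *Trp53inp1* depended on single parts of the bone or on the weight given to each spot. That of *Cdkn1a* kept its direction but was short of 1.5-fold without a single part of Control bone. *Sesn1* rested on few molecules, 46 in Control and 11 in Loaded. *Bax* was higher in the Loaded bone spots and *Mdm2* was too, by less than 1.5-fold, so the list did not move as a whole.

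Both samples were femurs of female bone cell reporter (BCR) mice, which carry fluorescent labels on the osteoblast gene *Ibsp* and the osteoclast gene *Acp5*. The mice received a femoral osteotomy held by an external fixator at 12 weeks of age and were killed at 17 weeks, 5 weeks after surgery. From the third week the Loaded mouse received cyclic compression through the fixator and the Control mouse a sham session without force. There was 1 section of 1 mouse per condition and no femur without a fracture, so differences between mice or sections cannot be told apart from loading, and no test of the conditions was possible.

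p53 is held low in unstressed cells by the ubiquitin ligase MDM2 and accumulates after DNA damage and other stress. It then raises p21, which stops the cell cycle, genes that promote cell death such as *Bax*, and *Mdm2* itself, which closes a negative feedback loop. p21 is also raised without p53, by glucocorticoids, FoxO factors and differentiation signals among others, and it rises when muscle and bone precursors leave the cell cycle.

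The genes lie apart in the mouse genome (mm10, the same assembly as GRCm38, with gene positions from GENCODE M21). *Cdkn1a* is at chr17:29090976-29100727 on the plus strand, *Phlda3* at chr1:135766119-135769136 and *Trp53inp1* at chr4:11156431-11174379, both on the plus strand, and *Sesn1* at chr10:41809935-41908424 on the plus strand. *Mdm2* is at chr10:117688875-117710758, *Ccng1* at chr11:40748552-40755311, *Bax* at chr7:45461697-45466898 and *Gdf15* at chr8:70629393-70632456, all on the minus strand. Each symbol occurs once among the measured genes, and the assay read each gene through probe pairs, so levels are compared here between places and not between genes.

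Because p53 binds DNA through pairs of a short half-site, the RefSeq promoter windows of the members (GRCm38.p6, 250 bases before to 50 after the start of transcription) were searched for the p53 half-site consensus, a palindrome that reads the same on both strands. A window was found for 7 of the 8 genes, all but *Trp53inp1*, with 10 windows in all, and 5 of the genes held a half-site in at least 1 window. Of all 32851 promoter windows 8.36% held one, which is a share of windows and not of genes. The stretches are shown because they carry the motif through which p53 is known to act on its targets. Capitals mark the half-site, each line runs 5′ to 3′ on the strand of the gene, and the name gives the distance of the first capital from the start of transcription of its window.
Cdkn1a 73 bases before the start, chr17:29090896-29090925: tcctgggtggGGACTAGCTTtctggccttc
Cdkn1a 51 bases before the start, chr17:29090918-29090947: tggccttcagGAACATGTCTtgacatgttc
Mdm2 186 bases before the start, chr10:117710925-117710954: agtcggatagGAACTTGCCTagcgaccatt
Ccng1 185 bases before the start, chr11:40755452-40755481: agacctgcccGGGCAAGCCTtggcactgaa
Bax 201 bases before the start, chr7:45467080-45467109: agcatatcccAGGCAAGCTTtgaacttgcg
Sesn1 173 bases before the start, chr10:41887256-41887285: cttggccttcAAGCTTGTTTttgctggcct
Among the 5 genes with a half-site in a window, *Cdkn1a*, *Ccng1* and *Sesn1* were lower in Loaded bone and *Mdm2* and *Bax* were higher. The window of *Phlda3*, both windows of *Gdf15*, and a further window each of *Cdkn1a* and *Sesn1* held no match, which says only that these letters do not occur there.

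Gene expression was measured with the Visium assay for formalin-fixed, paraffin-embedded tissue, in which pairs of probes mark the transcripts of a tissue section and are captured on barcoded spots 55 µm wide. Molecules, not reads, are tallied through unique molecular identifiers (UMIs), of which there were 9002147 in 1962 Control spots and 4910716 in 1436 Loaded spots. Bone spots were those on the study's own list of bone barcodes between the middle pins of the fixator, 131 in Control and 146 in Loaded. Spots off that list in which at least 10% of the UMIs came from 22 muscle genes were taken as muscle, 1047 in Control and 688 in Loaded after a filter on low counts, and 720 and 597 spots remained. Levels are UMIs divided by the summed size factors of the spots, written as normalized UMIs per spot, and intervals are exact 95% intervals that cover counting error only. Each region of each section was cut into 4 blocks along and across the shaft to show how far a level varied within a section. A spot holds several cells, so fewer cells of a type and less RNA per cell cannot be told apart.

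The regions differed in make-up between the sections. Osteoblast markers made up 2.38% of the UMIs of Control bone spots and 7.23% of Loaded bone spots, against 0.41% and 0.735% in muscle, and in the remaining spots they made up 2.91% and 2.16%, so the remaining Control spots held no smaller a share than Control bone. Muscle genes made up 16.8% of the UMIs of Control bone and 8.78% of Loaded bone, 36.7% and 26.4% of the muscle spots, and 5.25% and 6.22% of the remaining spots. Osteocyte markers were sparse everywhere, at 0.00933% of Control bone UMIs and 0.0800% of Loaded bone UMIs. They made up 0.00643% and 0.00652% in muscle, and 0.0300% and 0.0119% in the remaining spots, so the remaining Control spots held a larger share than Control bone. Granulocyte genes made up 0.111% of the UMIs in Control bone and 0.443% in Loaded bone, and erythroid genes were highest in the remaining spots, at 7.30% in Control and 7.60% in Loaded. Fibroblast and tendon markers (10 of 10 measured) made up 0.422% of the UMIs in Control bone and 0.236% in Loaded bone, 0.105% and 0.202% in muscle, and 0.375% and 0.245% in the remaining spots. Schwann cell markers (5 of 5 measured) made up 0.0678% and 0.0225% in bone, 0.0105% and 0.0190% in muscle, and 0.0548% and 0.0269% in the remaining spots. Both lists were thus lower in Loaded bone and remaining spots and higher in Loaded muscle, the signs of the *Cdkn1a* ratios. Those of *Cdkn1a* in muscle and the remaining spots each turned with 1 block left out, and both lists were singled out after their values were seen. Other lists went other ways. Macrophage markers were higher in Loaded in bone (0.0944% and 0.104%), muscle (0.0248% and 0.0577%) and remaining spots (0.0912% and 0.101%). Adipocyte markers were higher in Loaded bone and lower in the other regions. The part of these differences in make-up in the values that follow was not tested, except where spots with little muscle or few granulocyte and erythroid UMIs are given.

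*Cdkn1a* was highest in Control bone, with 431 UMIs and 2.62 normalized UMIs per spot (2.38 to 2.88). Loaded bone followed with 202 UMIs and a level of 1.59 (1.38 to 1.83), next to the remaining Control spots with 677 UMIs and a level of 1.59 (1.47 to 1.72). The lower levels were 1.13 in Loaded muscle, 1.08 in the remaining Loaded spots and 0.946 in Control muscle. Control bone stood above Loaded bone in its counting interval and in its blocks. Of the other neighbours in this order, the remaining Control spots stood above Loaded muscle in their counting intervals but not in their blocks, and the rest overlapped in both.

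**Figure D1:**
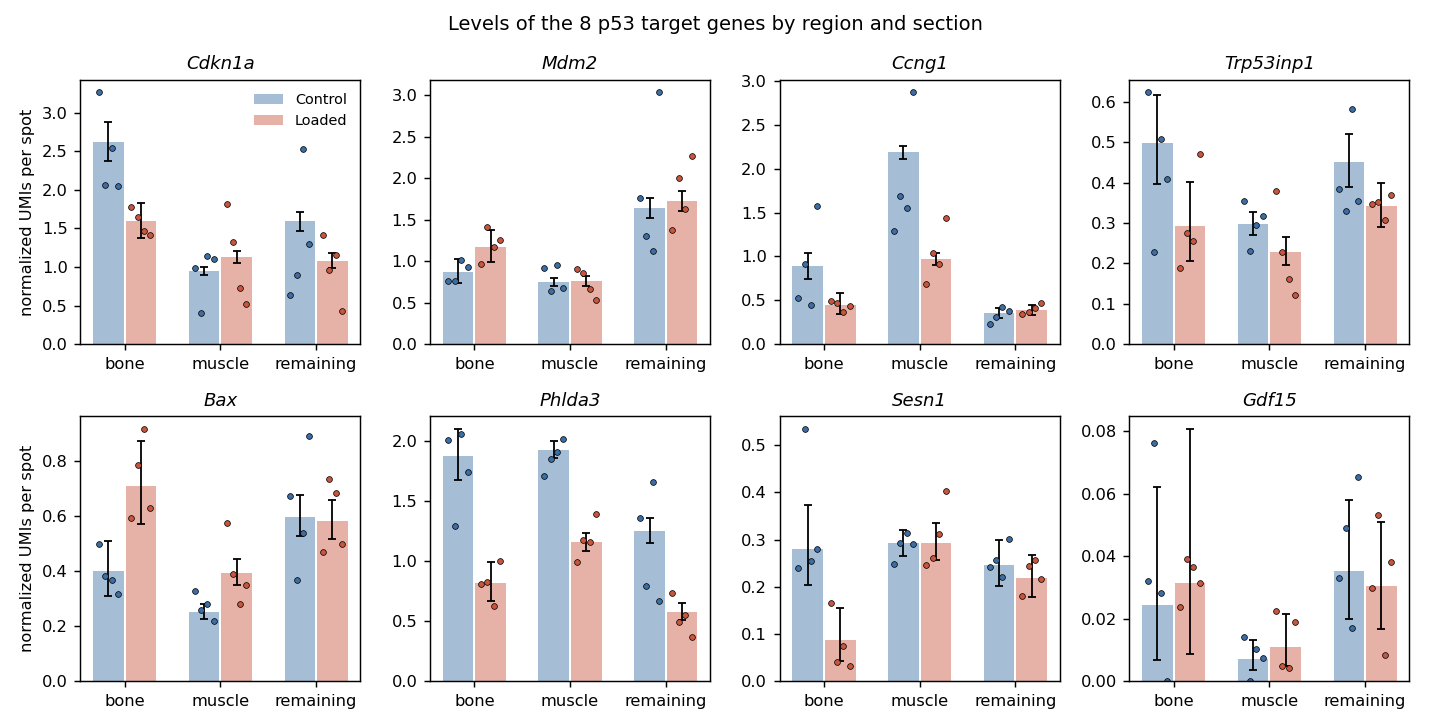
Level of each of the 8 genes (normalized UMIs per spot, vertical axis) in bone, muscle and remaining spots of the Control (blue) and Loaded (red) section. Bars are the level of the region, error bars its 95% counting interval, and points its 4 blocks. For *Cdkn1a* the 4 Control bone blocks, from 2.05 to 3.26, lie above the 4 Loaded bone blocks, from 1.41 to 1.78.

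The other members were ordered differently over the same 6 places. *Ccng1*, which encodes cyclin G1, was highest in Control muscle at 2.19 normalized UMIs per spot and lowest in the remaining Control spots at 0.352. *Mdm2* ran the other way, with 1.73 and 1.64 in the remaining spots of Loaded and Control and 0.762 and 0.750 in muscle. *Phlda3*, which encodes an inhibitor of the kinase AKT, stood near 1.93 in Control muscle and 1.88 in Control bone, whose counting intervals overlapped. *Bax*, the cell death effector, was highest in Loaded bone at 0.709 and lowest in Control muscle at 0.251. *Sesn1*, a stress-induced inhibitor of the growth kinase complex mTORC1, lay between 0.219 and 0.294 in 5 of the 6 places and at 0.0867 in Loaded bone.

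Within the Control section *Cdkn1a* was 2.77-fold higher in bone than in muscle spots (log2 1.47, 1.31 to 1.63), and all 4 bone blocks stood above all muscle blocks. Within the Loaded section the same difference was 1.41-fold (log2 0.49, 0.26 to 0.71), and the blocks overlapped. *Ccng1* had the opposite order, at log2 -1.30 (-1.55 to -1.06) in Control and -1.11 (-1.53 to -0.72) in Loaded for bone over muscle. In Loaded, *Sesn1* at log2 -1.76 (-2.78 to -0.89) and *Phlda3* at -0.50 (-0.81 to -0.20) were also lower in bone than in muscle, whereas in Control their intervals held 0. The values of both sections depended on the scaling. Within each section, TMM factors lowered all ratios of bone over muscle alike, and library totals raised them. In Control that of *Mdm2* went from 0.22 to -0.22 with TMM factors and to 0.76 with library totals. The counting intervals above thus hold only for the size factors used. The difference between the sections kept its direction but became smaller. With TMM factors the log2 ratio of Loaded over Control was -1.75 in bone and -0.18 in muscle for *Sesn1*, and -1.26 and -0.92 for *Phlda3*. With the size factors used these ratios were -1.69 and 0.01 for *Sesn1*, and -1.20 and -0.74 for *Phlda3*. *Mdm2* was higher in the remaining spots than in muscle in both sections, by log2 1.13 (0.99 to 1.27) in Control and 1.18 (1.02 to 1.34) in Loaded, with no overlap of blocks. For *Cdkn1a* the remaining spots were above muscle in Control by log2 0.75 (0.61 to 0.88) and not in Loaded, at log2 -0.06 (-0.23 to 0.10). The Control value was 0.043 without the blocks at end B, side 1 of both regions, which were left out together. It was 0.090 with TMM factors, 0.31 with a muscle limit of 5% and 1.25 with library totals, so it rested on those blocks and on the scaling.

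**Figure D2:**
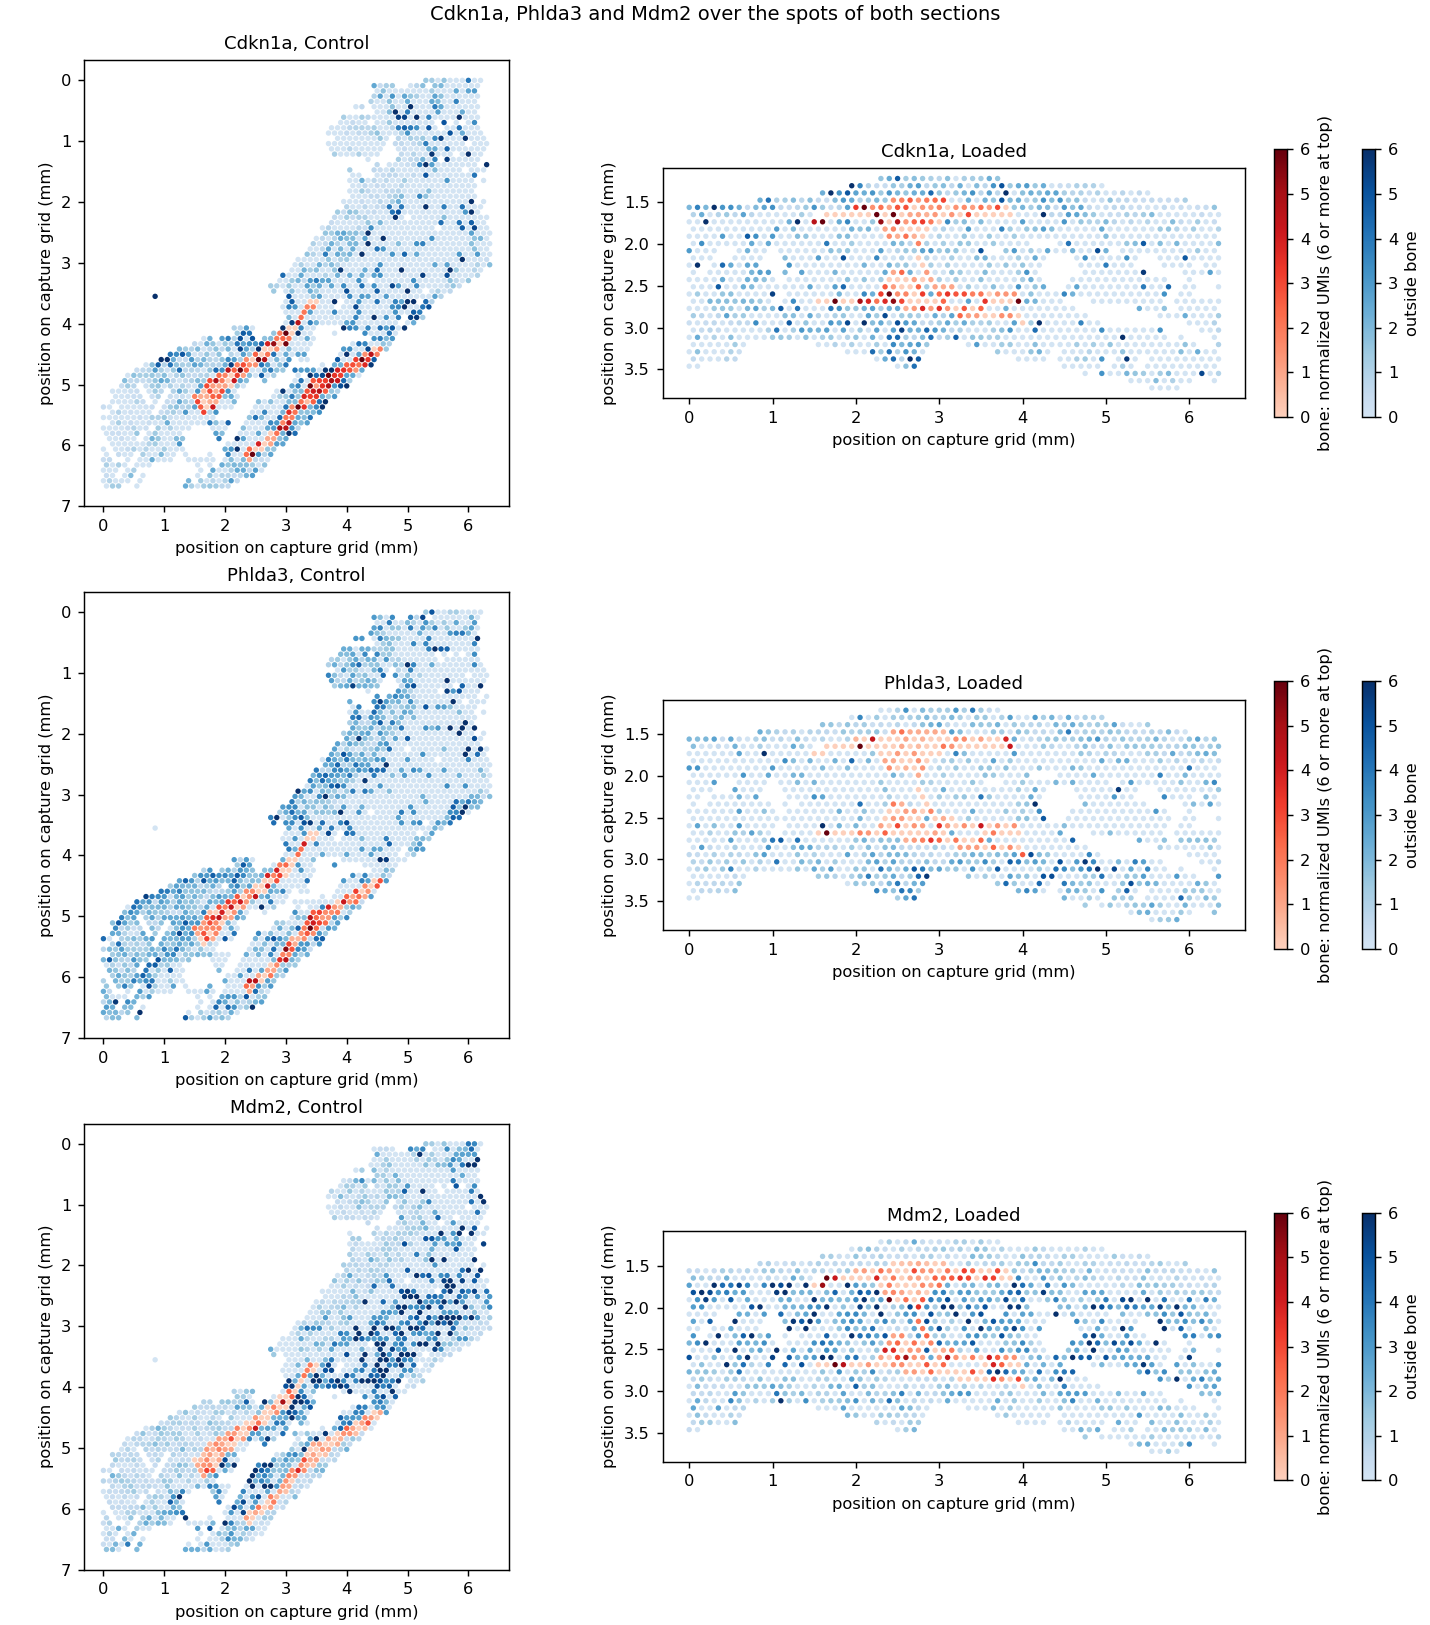
Spots of the Control (left) and Loaded (right) section at their position on the capture grid (both axes in mm), shaded by the normalized UMIs of *Cdkn1a*, *Phlda3* and *Mdm2*. Red shades are the listed bone spots and blue shades all others, on 1 scale from 0 to 6. *Cdkn1a* is darkest in the Control bone walls, at 2.62 normalized UMIs per spot, while *Mdm2* is darkest in the remaining spots, neither listed as bone nor taken as muscle.

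Loaded and Control bone are compared by the members' roles, beginning with the cell cycle genes. The *Cdkn1a* blocks held 2.05, 2.06, 2.55 and 3.26 normalized UMIs per spot in Control and 1.41, 1.46, 1.65 and 1.78 in Loaded. Every Loaded block was thus below every Control block, and *Cdkn1a* was 1.64-fold lower in Loaded (log2 -0.72, -0.97 to -0.47). The value rested in part on the Control block with the most *Cdkn1a* (end A, side 1, 204 of the 431 UMIs). Without that block the ratio was log2 -0.48, which is short of 1.5-fold. Bone spots with a muscle share under 5%, 16 in Control and 26 in Loaded, gave log2 -0.67 (-1.18 to -0.16), close to the value for all bone spots.

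*Ccng1* had 146 UMIs in Control bone and 57 in Loaded bone, or 0.886 and 0.449 normalized UMIs per spot (log2 -0.98, -1.45 to -0.53). Its blocks overlapped, with a range of 0.453 to 1.58 in Control against 0.366 to 0.498 in Loaded. The highest Control block was the one with the largest muscle share, 30.3% of its UMIs, and without it the log2 ratio was -0.29. Bone spots with a muscle share under 5% gave -0.34 (-1.39 to 0.70). That interval, from 18 and 17 UMIs, held both 0 and the value for all bone spots, so the depth of these spots does not settle it.

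The feedback regulators of p53 did not follow *Cdkn1a*. *Mdm2* had 144 UMIs in Control bone and 149 in Loaded bone, which is 0.874 and 1.17 normalized UMIs per spot, a log2 ratio of 0.43 (0.09 to 0.77) that is under 1.5-fold. Its blocks overlapped, with a range of 0.76 to 1.02 in Control against 0.97 to 1.41 in Loaded. In bone spots with a muscle share under 5% the *Mdm2* interval held 0 (26 and 46 UMIs, log2 0.57, -0.16 to 1.32). *Mdm4*, whose protein binds and restrains p53, was no member but was fixed as a gene to report. It had 25 and 48 UMIs in bone (log2 1.32, 0.59 to 2.08), and its 4 Loaded blocks, from 0.237 to 0.549, lay above its Control blocks, from 0.113 to 0.229. *Mdm4* was also higher in Loaded muscle (log2 0.80, 0.49 to 1.12) and in the remaining Loaded spots (log2 0.85, 0.49 to 1.22). The p53 transcript itself, *Trp53*, was sparse, with 17 and 31 UMIs in bone, and stood at log2 1.24 (0.35 to 2.19) in bone, 0.18 (-0.29 to 0.64) in muscle and 0.00 (-0.47 to 0.46) in the remaining spots.

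The members linked to cell death and survival split in the bone spots. *Bax* was 1.77-fold higher in Loaded bone (66 and 90 UMIs, log2 0.82, 0.35 to 1.31), with Control blocks from 0.316 to 0.496 and Loaded blocks from 0.593 to 0.915 normalized UMIs per spot. *Phlda3* was 2.30-fold lower (310 and 104 UMIs, log2 -1.20, -1.53 to -0.87), with Control blocks from 1.30 to 2.07 and Loaded blocks from 0.622 to 1.01. The *Bax* blocks and the *Phlda3* blocks of the sections did not overlap, in opposite directions. *Phlda3* was also lower in the bone spots with little muscle (49 and 28 UMIs, log2 -1.07, -1.79 to -0.37). *Bax* kept its direction in those spots, but its interval held 0 (11 and 23 UMIs, log2 0.81, -0.29 to 1.99). *Trp53inp1*, which promotes p53-dependent cell death and autophagy, had 82 and 37 UMIs (log2 -0.77, -1.37 to -0.19), and its blocks overlapped. Its log2 ratio was -0.53 without Control end A, side 1, -0.54 without Loaded end A, side 1, and -0.10 when every spot had equal weight.

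*Sesn1* had 46 UMIs in Control bone and 11 in Loaded bone, the largest ratio among the members at log2 -1.69 (-2.79 to -0.72). Its Control blocks, from 0.240 to 0.535, lay above its Loaded blocks, from 0.0314 to 0.166, and no Loaded bone spot held more than 1 UMI. In bone spots with a muscle share under 5% it had 6 and 5 UMIs, too few to compare. *Gdf15*, a secreted stress cytokine, had 4 UMIs in each bone region and at most 15 in any place, so no ratio was read from it.

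Of the 7 members with at least 50 UMIs in bone, 5 were at least 1.5-fold lower in Loaded and 1, *Bax*, was at least 1.5-fold higher. Over all genes with as many UMIs, 18.3% were at least 1.5-fold lower and 20.1% higher. The blocks of *Cdkn1a*, *Phlda3* and *Sesn1* in Loaded were all below those in Control, and those of *Bax* were all above, where 3.22% and 5.37% of all genes had such blocks. The median log2 ratio of the 7 members was -0.77 and that of the 3914 genes was 0.03. The study had already reported *Cdkn1a* as lower in the Loaded bone spots. Its part in the count of 5, in the blocks below and in this median was thus known beforehand. The count of 5 fell to 3 in bone spots with little muscle, where *Cdkn1a*, *Phlda3* and, with 17 and 5 UMIs, *Trp53inp1* were past 1.5-fold, and also to 3 without the Control block that held most *Cdkn1a*. In both cases the limit of 50 UMIs was not applied again to the smaller set of spots, and no share of all genes is given.

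**Figure D3:**
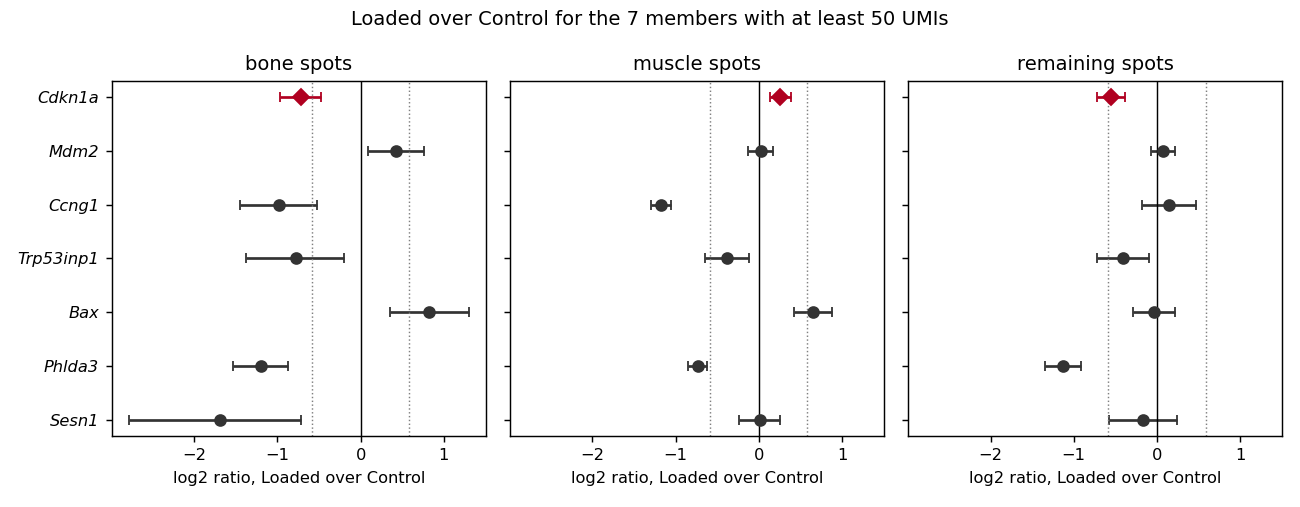
Log2 ratio of Loaded over Control (horizontal axis) of the 7 genes with at least 50 UMIs in bone, muscle and remaining spots. Points are ratios, bars their 95% counting intervals, dotted lines 1.5-fold, and the red diamond is *Cdkn1a*, which lies at -0.72 in bone, 0.26 in muscle and -0.55 in the remaining spots. *Phlda3* is the gene with a ratio below -0.7 in all 3 panels.

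In muscle *Cdkn1a* was not lower in the Loaded section. It had 1340 UMIs in Control and 833 in Loaded, or 0.946 and 1.13 normalized UMIs per spot (log2 0.26, 0.13 to 0.39). The blocks overlapped, at 0.408, 0.987, 1.10 and 1.14 in Control and 0.516, 0.722, 1.32 and 1.81 in Loaded. Without the highest Loaded block (end A, side 1) the log2 ratio was -0.051, and without Control end A, side 2 it was 0.045, so no direction is given for muscle.

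Other members differed more in muscle than *Cdkn1a*. *Ccng1* had 3095 and 714 UMIs and was 2.25-fold lower in Loaded (log2 -1.17, -1.29 to -1.05), with Control blocks from 1.29 to 2.87 and Loaded blocks from 0.692 to 1.44. Without Control end B, side 2, the block with the most *Ccng1*, the log2 ratio was -0.69. Single Control muscle spots held up to 49 *Ccng1* UMIs, against 6 in Loaded, and with equal weight for each spot the log2 ratio was -0.58. *Phlda3* was lower in all 4 Loaded muscle blocks, from 0.993 to 1.40, than in the Control blocks, from 1.71 to 2.02 (2733 and 852 UMIs, log2 -0.74, -0.85 to -0.62). *Bax* was higher in Loaded muscle (355 and 289 UMIs, log2 0.65, 0.42 to 0.88), as in bone, but its blocks overlapped. The *Bax* ratio was 0.42 without Loaded end A, side 1 and 0.49 without Control end B, side 2, both short of 1.5-fold.

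*Mdm2* and *Sesn1* stood at log2 0.02 (-0.13 to 0.17) and 0.01 (-0.23 to 0.25) in muscle, so that differences of 1.5-fold lay outside their counting intervals, and *Trp53inp1* at -0.38 (-0.65 to -0.12). Of the 7 members, 1 was at least 1.5-fold higher in Loaded muscle and 2 were lower, against 15.9% and 11.6% of all genes, and 1 had all Loaded blocks below all Control blocks, against 4.62%. None had them all above, against 2.55%. Muscle values depended on the scaling more than those of bone. Library totals raised and TMM factors lowered every muscle log2 ratio, by 0.32 and 0.19, and the share of higher genes among those past 1.5-fold went from 57.9% to 88.4% and 32.0%. *Cdkn1a* in muscle was then 0.58 and 0.073, and the count of lower members was 1 with library totals and 0 with equal weight for each spot, while *Bax* fell short of 1.5-fold with TMM and with equal weight.

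In the remaining spots *Cdkn1a* had 677 UMIs in Control and 499 in Loaded, or 1.59 and 1.08 normalized UMIs per spot (log2 -0.55, -0.72 to -0.38). A single Control block (end B, side 1) held 447 of the 677 UMIs at a level of 2.53, and the other Control blocks stood at 0.637, 0.894 and 1.30, within the Loaded range of 0.432 to 1.41. Without that block the log2 ratio turned to 0.23. *Phlda3* was at least 1.5-fold lower (533 and 264 UMIs, log2 -1.13, -1.35 to -0.91), also without that block (-0.75), but its blocks overlapped. *Trp53inp1* stood at -0.40 (-0.72 to -0.09), and *Mdm2*, *Ccng1*, *Bax* and *Sesn1* lay between -0.17 and 0.14 with intervals that held 0.

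In these spots 1 of the 7 members was at least 1.5-fold lower and none was higher, where 11.3% of all genes were lower and 11.3% higher. No member had blocks that were all above or all below those of Control, against 3.15% and 2.46% of all genes. TMM factors moved the share of higher genes among those past 1.5-fold from 49.98% to 60.2% there. The *Trp53inp1* ratio was -0.067 without Control end B, side 1.

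**Figure D4:**
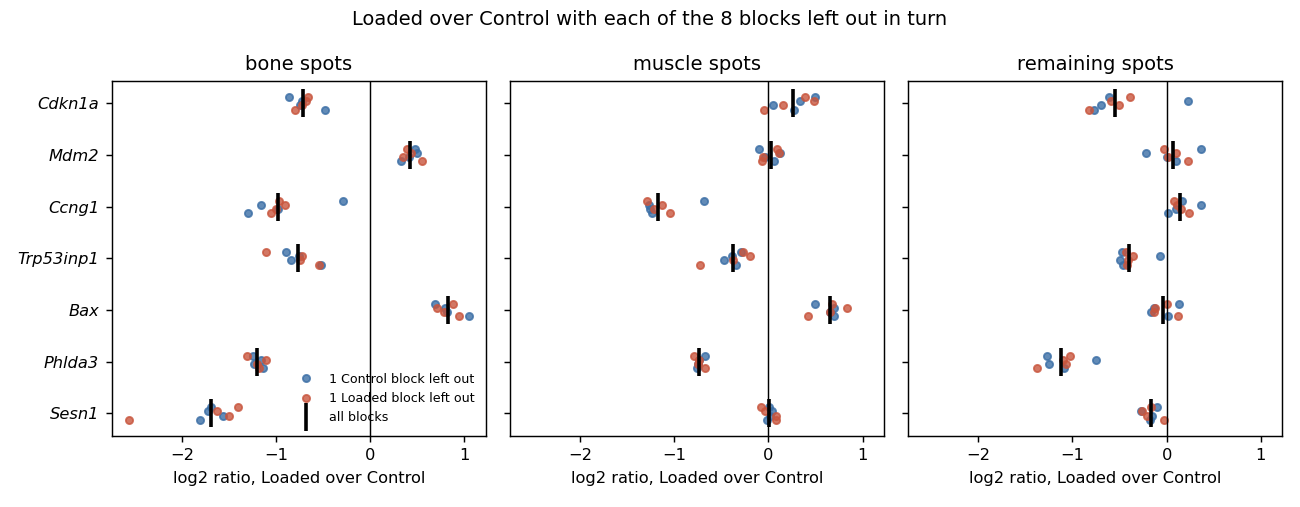
Log2 ratio of Loaded over Control (horizontal axis) for 7 genes in 3 regions with each of the 8 blocks left out in turn. Blue points leave out a Control block, red points a Loaded block, and the black bar is the ratio over all blocks. In bone the *Cdkn1a* points run from -0.86 to -0.48, and in the remaining spots 1 point lies at 0.23, across 0 from the others.

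The remaining spots were then split by their share of granulocyte and erythroid genes, at 5% of UMIs. In spots with the higher share, 424 in Control and 440 in Loaded, *Cdkn1a* was 1.17 and 0.652 normalized UMIs per spot (log2 -0.84, -1.16 to -0.53). In spots with the lower share, 296 and 157, it was 1.85 and 1.57 (log2 -0.24, -0.44 to -0.04). *Mdm2* had the reverse order of places, with 2.94 and 2.33 in the spots with the higher share and 0.853 and 1.06 in the others. Its ratio changed sign between them, from -0.34 (-0.51 to -0.16) to 0.31 (0.04 to 0.58). *Phlda3* was lower in Loaded in both, at -0.72 (-1.12 to -0.33) and -1.11 (-1.39 to -0.85).

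Whether *Cdkn1a* moved with the other targets was also asked without any size factor, as its UMIs per 100 UMIs of the other 7 members. In bone there were 54.0 in Control and 44.7 in Loaded, an odds ratio of Loaded over Control of 0.828 (0.671 to 1.02). In muscle there were 16.6 and 29.7 (odds ratio 1.79, 1.62 to 1.98), and in the remaining spots 34.8 and 28.1 (0.808, 0.706 to 0.924). The Control block at end B, side 1 held 447 of the 677 *Cdkn1a* UMIs of the remaining spots. The odds ratio was not taken without it, so no direction is given there. The bone value hid a split between the partners. Per UMI of *Mdm2* and of *Bax*, *Cdkn1a* was lower in Loaded bone, with odds ratios of 0.453 (0.338 to 0.608) and 0.344 (0.236 to 0.500). Per UMI of *Phlda3* it was higher (1.40, 1.05 to 1.87), and per UMI of *Ccng1* (1.20, 0.837 to 1.74) and *Trp53inp1* (1.04, 0.670 to 1.63) the interval held 1.

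In muscle *Ccng1* supplied 3095 of the 8089 UMIs of the other members in Control, and without it the odds ratio was 1.48 (1.34 to 1.64). Against *Mdm2* alone the odds ratio in muscle was 1.18 (1.03 to 1.35). Loaded end A, side 1 held 325 of the 833 *Cdkn1a* UMIs and 162 of the 560 *Mdm2* UMIs of Loaded muscle. The odds ratio was not taken without that block, so no direction is given against *Mdm2*. In the remaining spots the odds ratio without *Mdm2* was 0.937 (0.810 to 1.08).

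Spots with and without *Cdkn1a* were compared after 1000 UMIs had been drawn from every spot that held as many. This left out 0 Control and 15 Loaded bone spots, 167 and 37 muscle spots, and 89 and 24 remaining spots. A *Cdkn1a* UMI was then found in 41.2% of Control bone spots (32.7 to 50.15) and 39.7% of Loaded bone spots (31.3 to 48.6), with 64.9 and 52.7 UMIs per 100 spots. Before thinning the shares were 84.7% and 64.4%, and after thinning to 500 UMIs 30.5% and 21.9%, so at equal depth the intervals of the shares overlapped between the sections. In muscle 16.6% of Control and 20.9% of Loaded spots held *Cdkn1a*, and in the remaining spots 27.3% and 19.7%. A single Control bone spot held up to 20 *Cdkn1a* UMIs, and the tenth of spots with the most held 34.1% of its bone UMIs in Control and 36.6% in Loaded. No place in these sections is known to lack p21 transcripts, so a background from molecules that spread between spots was not measured.

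The other 7 members together did not differ, beyond counting error, between thinned spots with *Cdkn1a* and those without. In Control bone there were 148.1 UMIs of them per 100 spots with *Cdkn1a* and 140.3 without (log2 0.08, -0.36 to 0.51). In Loaded bone there were 128.8 and 107.6 (0.26, -0.22 to 0.74), and in the 4 other places the log2 ratio lay between 0.00 and 0.12 with intervals that held 0. The Loaded bone interval reached past 1.5-fold, so the depth of these spots does not settle a difference of that size. Of 30 single comparisons with at least 20 UMIs, the interval lay above 0 in 1, *Trp53inp1* in the remaining Loaded spots (0.99, 0.09 to 1.84), and below 0 in 1, *Ccng1* in Control muscle (-0.74, -1.31 to -0.20). No share over all genes is given for these, so neither is read as a result. The Control muscle spots with *Cdkn1a* also had a lower median muscle share, 31.4% against 37.0%.

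*Cdkn1a* was higher in the nearest than in the farthest of 4 bins of distance from the listed bone spots. Near bone here means near those spots, since bone off the list was not marked. In Control muscle its level was 1.67 within 200 µm of a bone spot and 0.447 beyond 1000 µm (log2 1.90, 1.63 to 2.16), and in Loaded muscle 1.69 and 0.580 (1.54, 1.25 to 1.84). In the remaining spots the near level exceeded the far level by log2 1.63 (1.35 to 1.92) in Control and 0.87 (0.49 to 1.27) in Loaded. These were the largest near-over-far ratios among the 7 members with enough UMIs in each of the 4 places, although in the remaining Loaded spots *Bax* came close, at 0.75 (0.22 to 1.31). The fall was not steady, since the remaining Control spots held 2.42, 1.29, 2.52 and 0.783 from the nearest bin to the farthest. These Control values were not taken without the block at end B, side 1, which held most *Cdkn1a* UMIs of the remaining Control spots. In Loaded muscle *Trp53inp1* at 0.92 (0.29 to 1.53) and *Bax* at 0.90 (0.45 to 1.36) were also higher near bone. So were *Mdm2* at 0.39 (0.07 to 0.70) and *Phlda3* at 0.27 (0.07 to 0.46) in Control muscle. In the remaining Control spots *Trp53inp1* at 0.81 (0.34 to 1.28), *Ccng1* at 0.70 (0.13 to 1.28) and *Phlda3* at 0.62 (0.34 to 0.89) went the same way as *Cdkn1a*. In the remaining Loaded spots *Ccng1* had the opposite sign, at -0.66 (-1.22 to -0.10). *Trp53inp1* at 0.55 (-0.15 to 1.29) and *Phlda3* at 0.39 (-0.08 to 0.88) had intervals there that held 0. *Mdm2* in muscle was 0.879 near and 0.672 far in Control and 0.732 and 0.665 in Loaded, and in the remaining Control spots it was lower near bone (log2 -0.45, -0.72 to -0.18). *Ccng1* in muscle was lower near bone than far from it in both sections (log2 -0.34 and -0.43), where the near muscle spots also held the smaller share of muscle genes, 31.3% against 38.0% in Control and 21.8% against 26.6% in Loaded.

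At matched distance muscle *Cdkn1a* differed between the sections in some bins and not in others. The log2 ratio of Loaded over Control was 0.02 (-0.27 to 0.31) within 200 µm, 0.40 (0.15 to 0.66) from 200 to 500 µm, -0.03 (-0.27 to 0.21) from 500 to 1000 µm and 0.38 (0.10 to 0.65) beyond. The sections covered different extents, since 595 of the 1047 Control muscle spots and 275 of the 688 Loaded ones lay beyond 1000 µm. *Ccng1* and *Phlda3* were lower in Loaded muscle at every distance, from log2 -1.43 to -0.98 and from -1.04 to -0.45. Among the remaining spots, *Cdkn1a* was lower in Loaded within 200 µm (2.42 and 1.30, log2 -0.89, -1.14 to -0.65) and from 500 to 1000 µm (-1.10, -1.57 to -0.64), with intervals that held 0 in the 2 other bins. How far this rested on Control end B, side 1, with 447 of the 677 *Cdkn1a* UMIs of the remaining Control spots, was not tested.

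**Figure D5:**
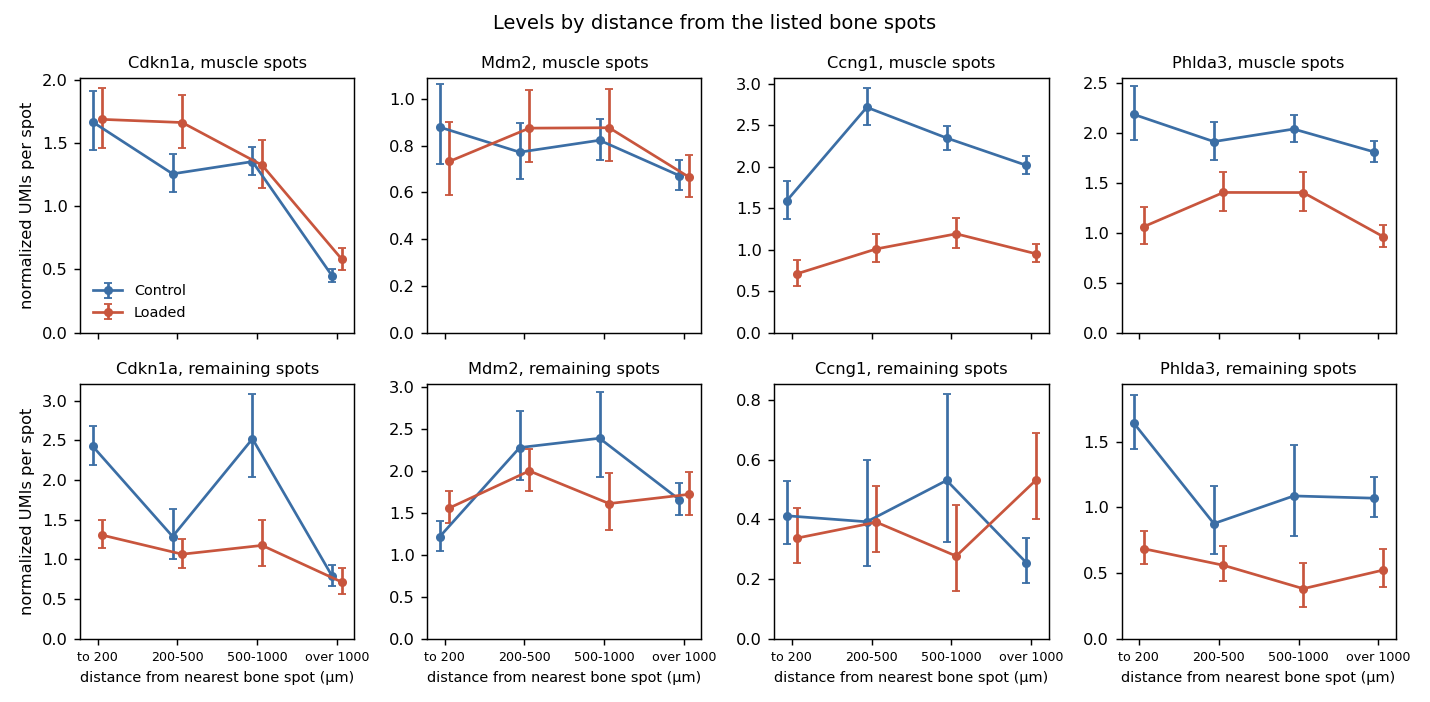
Level (normalized UMIs per spot, vertical axis) of *Cdkn1a*, *Mdm2*, *Ccng1* and *Phlda3* in muscle (top) and remaining (bottom) spots in 4 bins of distance from the nearest listed bone spot (µm, horizontal axis). Points are Control (blue) and Loaded (red) levels and bars 95% counting intervals. *Cdkn1a* in muscle goes from 1.67 and 1.69 near bone to 0.447 and 0.580 beyond 1000 µm.

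Likeness to *Cdkn1a* was described over the 12 blocks of each section, for the 2873 other genes with at least 300 UMIs in both sections. The 5 genes with the highest Pearson correlation of log2 levels, taking the smaller of the 2 sections, were *Ptgfrn* (0.87), *Fstl1* (0.83), *Mmp2* (0.83), *Myl4* (0.80) and *Lgmn* (0.80). Of these, *Fstl1* encodes a secreted glycoprotein, *Mmp2* a matrix metalloproteinase, *Myl4* a myosin light chain and *Lgmn* a lysosomal protease. No member was among them. The closest was *Trp53inp1*, at rank 284 (0.29), followed by *Bax* at 389, *Phlda3* at 448 and *Mdm2* at 866, while *Ccng1* (-0.39) and *Sesn1* (-0.54) came at 1891 and 2496. The blocks of a section share a library and differ in muscle content and depth, so these values are descriptive. Like *Cdkn1a*, the 4 leading genes of the 5 were lower in Loaded bone (log2 -0.78, -0.83, -0.88 and -1.13) and *Lgmn* was not (0.21).

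Other genes of the pathway were read from lists that were fixed by name. Of 30 other p53 targets 28 were measured and 6 had at least 50 UMIs in bone. None of the 6 was at least 1.5-fold higher in Loaded and 3 were lower, *Gadd45a*, *Ei24* and *Ddit4*, where 20.1% of all genes were higher and 18.3% lower, and their median log2 ratio was -0.57, against 0.03 over all genes. The count depended on the limits. With at least 20 UMIs 3 of 18 were higher and 5 lower, against 23.1% and 18.5% of all genes, with a median of -0.27 against 0.05. At 2-fold none of the 6 was lower, against 7.23% of all genes. The lowest were *Gadd45a*, a DNA damage and stress gene, at -0.98 (77 and 30 UMIs, -1.64 to -0.36) and *Ei24* at -0.95 (65 and 26 UMIs, -1.66 to -0.27). The highest were the exonuclease gene *Aen* at -0.11 (-0.84 to 0.60) and *Bbc3*, which encodes the cell death inducer PUMA, at -0.44 (-1.21 to 0.30). In muscle 6 of 20 were higher (*Zmat3*, *Plk2*, *Eda2r*, *Fdxr*, *Dram1* and *Pidd1*) and 3 lower (*Gadd45a*, *Tigar* and *Ddit4*), against 15.9% and 11.6% of all genes, with a median of 0.28. Among the remaining spots 2 of 20 were higher (*Ddb2* and *Fdxr*) and 2 lower (*Eda2r* and *Ddit4*), near the 11.3% of all genes in each direction, with a median of 0.01. Of these genes, all but *Gadd45a*, *Ei24*, *Aen* and *Bbc3* are named after their values were seen.

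Among the CDK inhibitors and their partners, no gene of the 7 with enough UMIs was past 1.5-fold in bone in either direction, where 20.1% of all genes were higher and 18.3% lower. In muscle 4 of 12 were higher and 2 lower, against 15.9% and 11.6% of all genes. Of 14 in the remaining spots none was higher and 1 was lower, against 11.3% in each direction. *Cdkn1b* and *Cdkn1c*, the relatives of *Cdkn1a* that encode p27 and p57, stood at -0.06 (-0.82 to 0.68) and -0.51 (-1.25 to 0.19), and *Cdk4* and *Rb1* at 0.18 (-0.62 to 0.97) and 0.33 (-0.42 to 1.08). Of p53 regulators only *Mdm4* had enough UMIs in bone. In muscle 1 of 4 regulators was at least 1.5-fold higher and 1 lower, and in the remaining spots 3 of 5 were higher and none lower, against the same shares of all genes.

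The integrated stress response, which acts through the factor ATF4, was split in bone, with 5 of 8 genes at least 1.5-fold higher in Loaded and 3 lower, against 20.1% and 18.3% of all genes. In muscle 2 of 11 were higher and 1 lower (15.9% and 11.6% of all genes), and in the remaining spots none of 11 was past 1.5-fold (11.3% of all genes in each direction). Highest in bone were *Asns*, the asparagine synthetase gene, at 1.85 (26 and 72 UMIs, 1.18 to 2.55) and *Nupr1* at 1.08 (61 and 99 UMIs, 0.60 to 1.56), and lowest were *Atf5* at -1.82 (78 and 17 UMIs, -2.67 to -1.05) and *Chac1* at -1.02 (58 and 22 UMIs, -1.80 to -0.29).

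FoxO and glucocorticoid response genes, which are known to be high in fasted or wasting muscle, were the last list. Of 16 with enough UMIs, 10 were at least 1.5-fold lower in Loaded bone and none was higher, against 18.3% and 20.1% of all genes, with a median of -0.82. *Pdk4*, the pyruvate dehydrogenase kinase that spares glucose, had 70 and 5 UMIs (log2 -3.43, -5.10 to -2.14), and *Fbxo32*, which encodes the muscle ubiquitin ligase atrogin-1, 65 and 21 (-1.25, -2.04 to -0.52). The metallothionein genes *Mt1* and *Mt2* stood at 0.54 (0.30 to 0.79) and 0.49 (0.08 to 0.90). In muscle 5 of 17 of these genes were lower and none higher (median -0.50), against 11.6% and 15.9% of all genes, and in the remaining spots 4 were lower and 1, *Mt2*, was higher (median -0.37), against 11.3% in each direction. Muscle genes were also a smaller share of Loaded than of Control bone, 8.78% against 16.8%, and the part of this in the list's count was not tested.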

How the data were processed

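A Control section and a Loaded section were analysed. The authors made the counts with Space Ranger 2.0.0 (file header; build mm10, R 4.3.1 and Seurat per the submitters' processing notes), and the deposited values are raw UMI counts per gene and spot. The deposited grid positions of the spots, which carry no unit, were turned into µm from the 100 µm pitch. The 557 barcodes found in both sections are positions of the fixed grid, not shared cells. Spots needed 500 UMIs and 250 genes, as in the study, which kept 1898 Control and 1431 Loaded spots. Strain regions and micro-CT were not analysed here.

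Bone spots came from the study's barcode list, muscle and remaining spots from a 10% limit on the share of 22 muscle genes. For a level, the UMIs of all spots of a place were added up and set over the added scran 1.30.0 size factors (R 4.3.3), computed over both sections. The study's likelihood ratio test on spots was left aside, since the spots share a section and are no replicates. A gene was called at 1.5-fold with at least 50 UMIs over the places compared. Intervals are exact Poisson, binomial or conditional binomial (Python 3.11.15, scipy 1.17.1, numpy 2.4.6), and a sum of 0 would be set to 3 UMIs. The log2 ratio in bone and its interval were tested on simulated Poisson counts, which vary by counting error only. The other measures were not simulated. Alternatives were other scalings (TMM from edgeR 4.0.16), equal weight for spots, other limits, and each block left out. Named genes are the members, *Trp53*, *Mdm4*, the 2 highest and 2 lowest of each list in bone, and the 5 genes most like *Cdkn1a*. Members and lists were chosen with earlier results of these data known.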

Additional observations from a re-analysis of the deposited data

Results flagged for a closer look

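The log2 ratio of Loaded over Control of *Cdkn1a* had opposite signs in bone (-0.72) and in muscle (0.26), a difference of -0.98 between the regions, and in muscle and the remaining spots (-0.55), a difference of 0.81. The difference was not tested, since each condition has 1 section. The muscle value was -0.051 without Loaded end A, side 1, and the remaining value was 0.23 without Control end B, side 1.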

How the results depend on the processing

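The *Cdkn1a* ratio in bone kept its sign and stayed within its counting interval under all alternatives run, from -0.86 to -0.48 with a block left out and from -0.78 to -0.64 otherwise. In muscle it was 0.58 with library totals, 0.073 with TMM and 0.068 with a muscle limit of 5%, and from -0.051 to 0.49 with a block left out. In the remaining spots it was -0.30 and -0.35 with muscle limits of 5% and 20%, and from -0.83 to 0.23 with a block left out. It was -0.84 and -0.24 in spots with the higher and the lower share of granulocyte and erythroid genes. The count of members lower in bone was 3 in spots with little muscle, *Trp53inp1* with 17 and 5 UMIs among them, and 3 to 5 with a block left out. In muscle the count of higher members was 0 with TMM and with equal weight and 0 to 1 with a block left out, and that of lower members 1 with library totals, 0 with equal weight, 3 with a muscle limit of 20% and 2 to 3 with a block left out. In the remaining spots the count of lower members was 2 with scran on the region alone, equal weight, no filter and a muscle limit of 5%. It was also 2 in spots with the higher share of granulocyte and erythroid genes, and 1 to 2 with a block left out. The odds ratio of *Cdkn1a* per UMI of the others was 0.657 in bone without *Phlda3*, 1.48 in muscle without *Ccng1*, and 0.937 and 0.689 in the remaining spots without *Mdm2* and *Phlda3*. No odds ratio was taken with a block left out.

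Of 352 ratios between regions of a section, 267 stayed within their counting interval, 84 left it with the same sign or without having been past 1.5-fold, and 1 changed sign, *Trp53inp1* in the remaining spots over muscle of Control, from 0.60 to -0.058 with TMM. Of 343 ratios of the other members between sections, 299 stayed within their interval and none past 1.5-fold changed sign. With a pseudocount of 1, 3 of the 5 genes most like *Cdkn1a* were again among the first 5. Of 90 counts over the pathway lists under other limits on UMIs or fold, 36 moved by more than 1.5 times. No paired analysis was possible because each condition has 1 section. Genes with few UMIs in bone, *Gdf15* and *Trp53* among them, are limited by depth.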
